A study of Mus musculus with 14 samples.

Results

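The genes described here are 40 interferon-stimulated genes, taken by symbol from a list of classical interferon targets; all 40 had a row among the 24062 genes of the count table. They were followed in bulk RNA sequencing of 14 mouse samples. The 3 controls (DRG3, DRG4 and DRG5) were dorsal root ganglia (DRGs) with their nerves, labelled with the genotype Nf1fl/fl, although the series title calls them wild type. The tumors were plexiform neurofibromas (PNs) of DhhCre;Nf1fl/fl mice, in which Cre driven from the Dhh promoter deletes Nf1 in the Schwann cell (SC) lineage; the other cells of the tissue were sequenced with it. There were 5 slow-growing PNs (1079, 1198A, 1202, 1203 and 1206) and 6 fast-growing PNs (1053, 1071, 1179, 1191, 1214 and 1216). The library names alone do not show whether any PNs shared a mouse. Growth was read by MRI: PNs called fast-growing gained more than 35 mm3 between the scans at 7 and 9 months of age, and slow-growing ones changed by less than 5 mm3. Controls and PNs were collected at 9 months of age. No group received a drug, and all mice were on a mixed background that the labels give as C57BL/6, I-129 and FVBN.

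Type I interferons are cytokines that bind a receptor made of IFNAR1 and IFNAR2. The receptor's kinases JAK1 and TYK2 then start a signal that leads to a transcription factor with STAT2 and IRF9 in it, which binds the interferon-stimulated response element in front of its target genes. The products of these genes sense foreign RNA and DNA, block translation, degrade RNA, restrict viruses, and feed back on the pathway itself. Tumors and nerves hold many cell types that can respond, macrophages and SCs among them.

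To show what the members share in sequence, the 250 bases before each gene's start were searched for the core of the response element, which is GAAA, any 2 bases (NN) and GAAA again, on either strand (TTTC, NN and TTTC on the other). RefSeq promoters of build GRCm38.p6 matched 29 of the 40 members by symbol, and 11 of the 29 held the letters at least once. Of all 32851 promoters in the table, 2.98% held them in a window of the same length. Among members that passed the test in at least 1 comparison below, Isg15, Ifit1, Ifit3, Oas1a and Gbp3 had a match within 160 bases of the start, and these are printed with Oasl2, which had none. Each is the 160 bases up to the start, 5′ to 3′ on the gene's own strand, and capitals mark the matches.
Isg15 (chr4:156200819-156200978, minus strand): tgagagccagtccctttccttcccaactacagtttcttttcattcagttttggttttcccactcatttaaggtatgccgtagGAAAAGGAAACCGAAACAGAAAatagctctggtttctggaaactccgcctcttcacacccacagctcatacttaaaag
Ifit1 (chr19:34640729-34640888, plus strand): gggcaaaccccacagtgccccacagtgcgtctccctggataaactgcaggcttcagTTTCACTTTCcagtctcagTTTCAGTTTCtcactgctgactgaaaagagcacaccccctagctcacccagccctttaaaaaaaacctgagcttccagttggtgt
Ifit3 (chr19:34583369-34583528, plus strand): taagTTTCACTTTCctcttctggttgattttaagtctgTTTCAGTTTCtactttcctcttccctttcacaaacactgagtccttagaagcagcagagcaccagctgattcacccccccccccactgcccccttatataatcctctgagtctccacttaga
Oas1a (chr5:120907526-120907685, minus strand): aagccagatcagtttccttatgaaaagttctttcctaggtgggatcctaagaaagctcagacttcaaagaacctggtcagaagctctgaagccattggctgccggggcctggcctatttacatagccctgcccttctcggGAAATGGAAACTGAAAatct
Gbp3 (chr3:142559884-142560043, plus strand): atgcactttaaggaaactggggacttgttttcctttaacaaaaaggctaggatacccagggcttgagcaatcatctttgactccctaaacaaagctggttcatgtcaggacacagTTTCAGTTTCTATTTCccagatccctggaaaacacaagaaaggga
Oasl2 (chr5:114896774-114896933, plus strand): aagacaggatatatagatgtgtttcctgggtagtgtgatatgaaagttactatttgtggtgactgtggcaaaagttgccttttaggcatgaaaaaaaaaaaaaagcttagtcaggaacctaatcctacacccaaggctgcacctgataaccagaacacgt
Isg15 held 3 overlapping matches that together form 1 run of capitals. Ifit1 and Ifit3 each held 2 separate matches, and in Oas1a and Gbp3 a pair of matches overlapped. The pair in Oas1a lay closest to the start, with first bases 20 and 14 bases upstream, and the first match of Ifit3 lay farthest, at 156 bases. In the full windows of 300 bases, which run 50 bases into the transcript, 15 of the 29 members and 3.44% of all promoters held a match.

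Libraries held 9596773 to 17594164 counts in genes, so that 3 counts, the floor used here for detection, were worth 0.166 to 0.317 CPM (counts scaled to a common library total). Levels are CPM scaled by TMM over the 14 libraries; differences are log2 fold changes with their standard error (SE) from edgeR's quasi-likelihood test, called at an adjusted p below 0.05 over all genes tested. Nf1 itself was at 131 to 229 CPM in controls, 224 to 293 CPM in slow-growing and 224 to 276 CPM in fast-growing PNs. These counts cover the whole gene and all cells, so they check neither the deletion nor the labels. Genes of SCs were present in every library, at a summed 1028 to 2924 CPM over 7 markers in controls, 1992 to 4787 CPM in slow-growing and 2438 to 3316 CPM in fast-growing PNs. Library 1191 stood apart in neuronal genes: the 8 markers summed to 10.2 CPM there and to 1010 CPM or more in the other 13. Libraries 1079 and 1191 stood apart in genes of immature thymocytes, with Rag1 at 189 and 102 CPM and at most 13.3 CPM elsewhere. The labels do not say whether mice of a group shared a litter or a day, so the p-values measure the spread between these samples.

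All 40 members passed the filter on low counts in all 3 comparisons. Fast-growing PNs had 14 members higher than slow-growing PNs and none lower by edgeR, where 0.802% of the 15465 genes tested were called higher and 0.466% lower. The median log2 fold change was 1.24 over the members and -0.03 over all genes, and 38 of the 40 members were above 0. At an unadjusted p below 0.05, 37 members were higher and 0 lower, where 11.9% of all genes were higher and 8.51% lower, and DESeq2 and limma-voom also called 0 lower. Against control, fast-growing PNs had 14 members higher and 1 lower, where 14.8% of 16037 genes were called higher and 16.7% lower, with a member median of 0.77 beside 0.02 for all genes. Slow-growing PNs had 3 members higher than control and 1 lower, where 4.12% of 15714 genes were called higher and 7.13% lower, with a member median of -0.32 beside 0.04. The comparisons share samples pairwise (both tumor groups were set against the same 3 controls), so their fold changes are given side by side and not as independent results. In tissue samples, more cells of a type and more RNA per cell cannot be told apart.

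**Figure D1:**
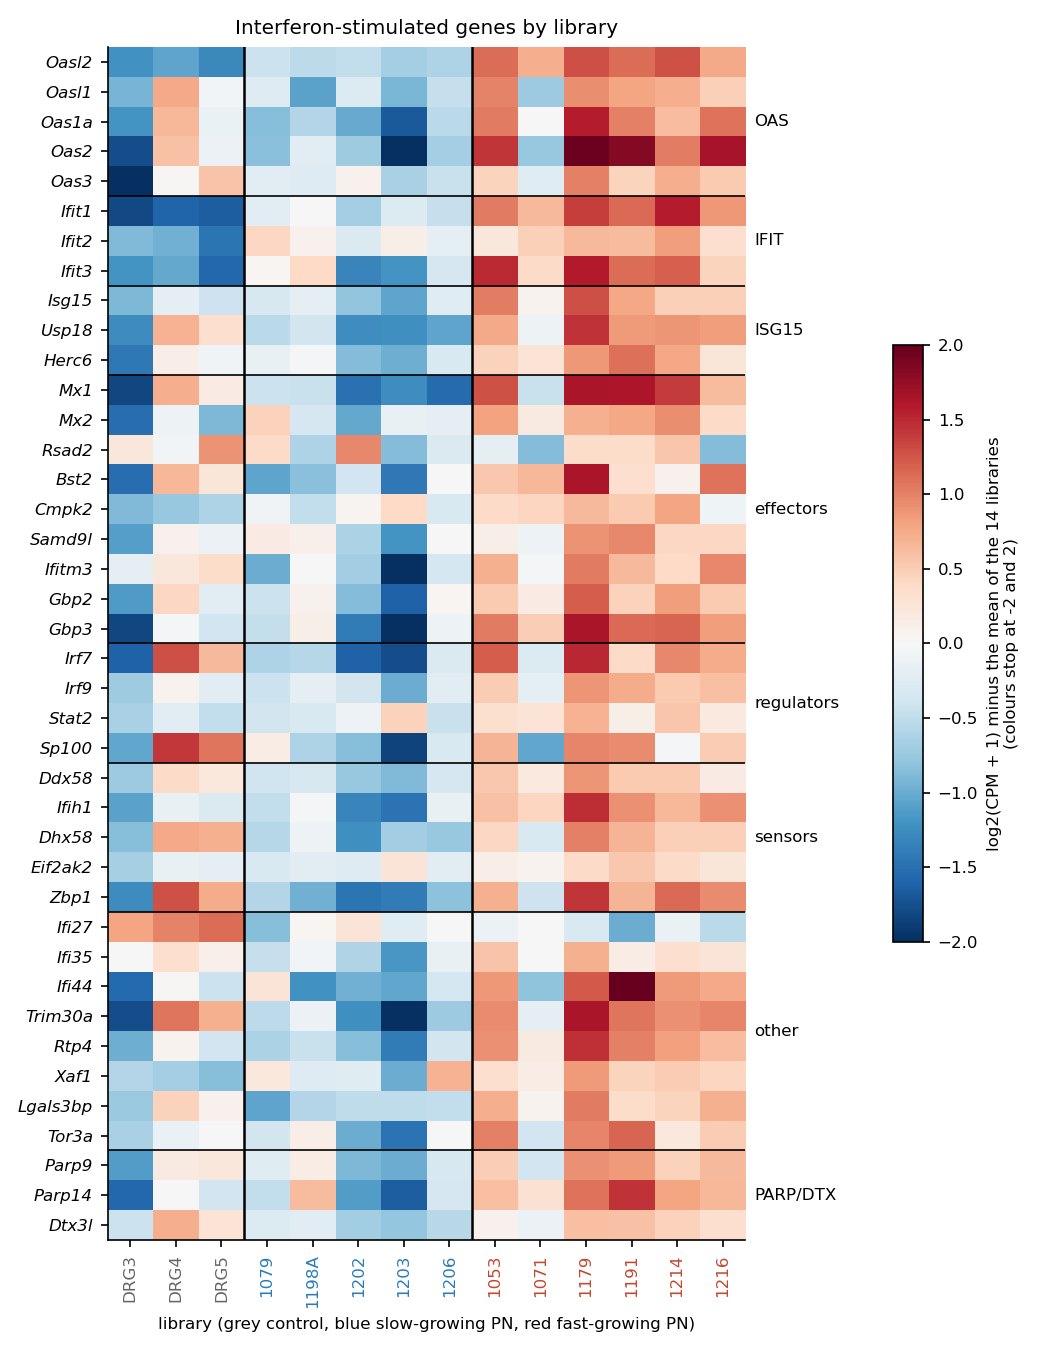
Map of the 40 interferon-stimulated genes (rows, grouped by role) in the 14 libraries (columns), coloured by log2(CPM + 1) minus the gene's mean over the libraries. Fast-growing PNs are mostly red, with 1179 the highest library for 25 members. The control DRG3 and the slow-growing 1203 are the bluest columns, lowest for 12 and 20 members.

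Libraries of a group were not alike. Among fast-growing PNs, 1179 was the highest of all 14 libraries for 25 members, 1191 for 6 and 1214 for 4, while 1071 was the lowest fast-growing PN for 32 members. Among slow-growing PNs, 1203 was lowest for 25 members. Among controls, DRG3 was the lowest for 35 of the 40 members, and DRG4 the highest for 31. The groups' means took 2 main orders. In 11 members the mean CPM was lowest in controls, intermediate in slow-growing and highest in fast-growing PNs: Oasl2, Ifit1, Ifit2, Ifit3, Mx2, Stat2, Eif2ak2, Parp14, Xaf1, Cmpk2 and Samd9l. This order of means was not tested, and 22.3% of the 15251 genes tested in all 3 comparisons had it. In 27 members slow-growing PNs had the lowest mean of the 3 groups, as did 24.0% of those genes, and in Ifi27 and Rsad2 fast-growing PNs had it.

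The oligoadenylate synthetase family makes or resembles enzymes that make the second messenger that switches on RNase L. Its members lie on chromosome 5, where Oasl2 spans chr5:114896936-114912234. Oasl2, which encodes an OAS-like protein, was at 24.9, 27.7 and 23.4 CPM in the controls, at 43.4, 40.5, 41.3, 36.2 and 37.7 CPM in slow-growing PNs, and at 97.8 (lowest), 128 (median) and 145 CPM (highest) in fast-growing PNs. The 3 groups did not overlap at any step. Oasl2 was 1.53-fold higher in slow-growing PNs than in controls (log2 fold change 0.61 ± 0.15 SE, edgeR adjusted p = 0.0332), a call kept in 1 of the 8 fits that left out a library. In fast-growing PNs it was 4.71-fold higher than in controls (2.24 ± 0.18, edgeR adjusted p = 4.17e-05) and 3.11-fold higher than in slow-growing PNs (1.64 ± 0.13, edgeR adjusted p = 0.00104). Per kilobase of its longest transcript it was the most abundant member of the family, at a mean of 23.3 CPM per kb over the libraries.

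Oas1a, a synthetase proper, was at 1.04, 6.37 and 3.27 CPM in controls, at 1.59, 2.10, 1.32, 0.456 and 2.22 CPM in slow-growing PNs, and at 3.67, 8.48 and 12.8 CPM (lowest, median and highest) in fast-growing PNs. Every fast-growing PN was above every slow-growing one, while the controls spanned both. The log2 fold change was 2.38 ± 0.41 between fast- and slow-growing PNs (edgeR adjusted p = 0.0376), and neither tumor group passed the test against control. Oasl1, Oas2 and Oas3 did not pass in any comparison, with log2 fold changes of 1.99, 2.39 and 0.86 between fast- and slow-growing PNs (edgeR adjusted p = 0.0664 to 0.0746). Oasl1 was low throughout, at 4.09 CPM or less.

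The IFIT proteins bind viral RNA that lacks the host's cap marks and stop its translation; their genes form a cluster on chromosome 19. Ifit1 (chr19:34640871-34650009) was at 7.86, 9.23 and 8.87 CPM in controls, at 25.9, 30.2, 18.4, 24.7 and 21.6 CPM in slow-growing PNs, and at 47.8, 64.9 and 91.4 CPM in fast-growing PNs (lowest, median and highest, as for all fast-growing values below). No 2 groups overlapped. It was the member with the largest difference between fast-growing PNs and control, 7.49-fold (log2 fold change 2.91 ± 0.24, edgeR adjusted p = 4.62e-05), and it was higher in slow-growing PNs too (1.44 ± 0.21, edgeR adjusted p = 0.0043). Between fast- and slow-growing PNs the log2 fold change was 1.48 ± 0.19 (edgeR adjusted p = 0.0156). Ifit1 and Oasl2 were the 2 members called higher in all 3 comparisons. Of all genes tested in all 3, 0.544% were called higher in both comparisons of fast-growing PNs. The share called higher in all 3 was not counted and can be no larger than that.

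Ifit2 was at 25.6, 24.3 and 16.8 CPM in controls, at 64.5, 51.3, 39.4, 52.3 and 42.5 CPM in slow-growing PNs, and at 56.7, 71.4 and 86.4 CPM in fast-growing PNs. Both tumor groups lay above every control, by log2 fold changes of 1.13 ± 0.23 (slow-growing, edgeR adjusted p = 0.0163) and 1.61 ± 0.18 (fast-growing, edgeR adjusted p = 0.000218), but they overlapped each other (0.49 ± 0.15, edgeR adjusted p = 0.106). Ifit3 was at 9.07, 10.3 and 6.76 CPM in controls, at 22.6, 29.2, 8.22, 9.03 and 17.2 CPM in slow-growing PNs, and at 29.0, 50.0 and 67.8 CPM in fast-growing PNs. Slow-growing PNs were split, with 1202 and 1203 within the control range and the other 3 above it. Only the comparison of fast-growing PNs with control passed for Ifit3 (2.42 ± 0.34, edgeR adjusted p = 0.000705).

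**Figure D2:**
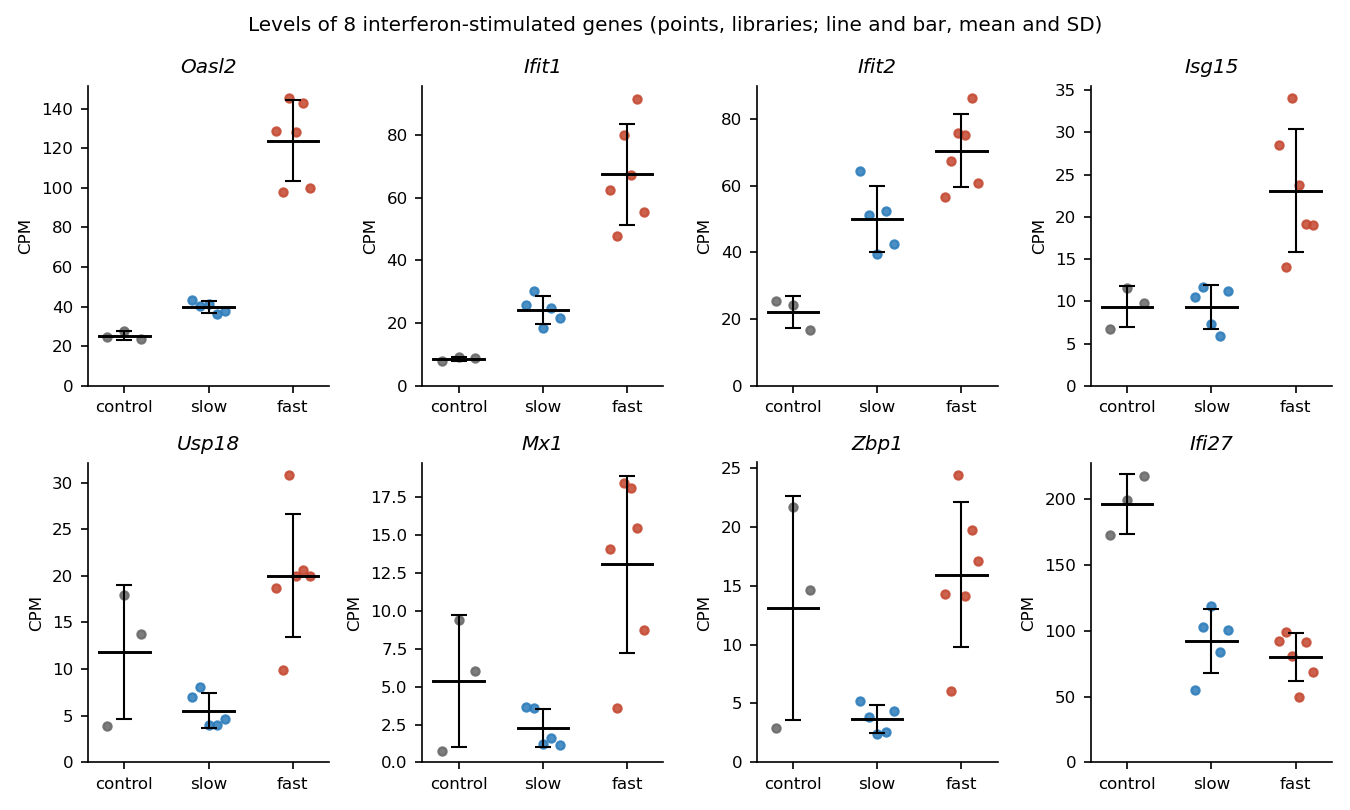
CPM of 8 members in each library (points) by group, with the mean (line) and SD (bar), n = 3 controls, 5 slow-growing and 6 fast-growing PNs. Oasl2 and Ifit1 step up from control to slow- to fast-growing PNs without overlap, Usp18, Mx1 and Zbp1 are low in slow-growing PNs and spread widely in controls, and Ifi27 is highest in controls.

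The ISG15 system attaches the ubiquitin-like protein ISG15 to other proteins and removes it again. Isg15, the modifier, was at 6.74, 11.6 and 9.82 CPM in controls, at 10.6, 11.7, 7.31, 5.93 and 11.2 CPM in slow-growing PNs, and at 14.1, 21.4 and 34.1 CPM in fast-growing PNs. Controls and slow-growing PNs covered the same range, and all 6 fast-growing PNs lay above both. Isg15 was higher in fast-growing PNs than in controls (1.24 ± 0.32, edgeR adjusted p = 0.0149) and than in slow-growing PNs (1.30 ± 0.26, edgeR adjusted p = 0.0449).

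Usp18, the protease that removes ISG15 and restrains the interferon receptor, was at 3.89, 17.9 and 13.7 CPM in controls, at 7.06, 8.04, 3.96, 4.01 and 4.63 CPM in slow-growing PNs, and at 9.93, 20.0 and 30.8 CPM in fast-growing PNs. Fast-growing PNs exceeded all slow-growing ones (1.85 ± 0.30, edgeR adjusted p = 0.0317), and the controls ran from below the slow-growing PNs into the fast-growing range. Herc6, the ligase for ISG15 in mice, was at 13.6, 41.8 and 36.2 CPM in controls, at 34.6, 37.6, 20.5, 18.9 and 30.6 CPM in slow-growing PNs, and at 45.2, 59.4 and 83.5 CPM in fast-growing PNs. It was higher in fast- than in slow-growing PNs (1.09 ± 0.23, edgeR adjusted p = 0.0484). All 3 genes of this system were thus called in that comparison, where 0.802% of all genes were called higher, and Isg15 alone of them against control, where 14.8% were.

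The sensors recognise foreign nucleic acid and start interferon production. Ifih1, encoding the RNA sensor MDA5, was at 17.3, 33.5 and 30.4 CPM in controls, at 26.1, 36.1, 14.3, 12.8 and 33.5 CPM in slow-growing PNs, and at 50.5, 65.1 and 106 CPM in fast-growing PNs. Every fast-growing PN lay above all other libraries, and the gene was called against control (1.29 ± 0.30, edgeR adjusted p = 0.00958) and against slow-growing PNs (1.49 ± 0.31, edgeR adjusted p = 0.0469). Ddx58, encoding the RNA sensor RIG-I, was at 28.6, 62.3 and 55.3 CPM in controls, at 35.9, 38.2, 28.0, 25.4 and 37.6 CPM in slow-growing PNs, and at 54.0, 69.1 and 89.2 CPM in fast-growing PNs. It differed between the tumor groups (1.04 ± 0.17, edgeR adjusted p = 0.0317), which did not overlap, and not between fast-growing PNs and control (0.41 ± 0.26, edgeR adjusted p = 0.268).

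Zbp1, a sensor of left-handed nucleic acid that can trigger necroptosis, was at 2.94, 21.7 and 14.7 CPM in controls, at 5.24, 3.83, 2.44, 2.55 and 4.34 CPM in slow-growing PNs, and at 6.05, 15.7 and 24.4 CPM in fast-growing PNs. Slow-growing PNs were low and close together, 4.31-fold below fast-growing PNs (log2 fold change of fast over slow 2.11 ± 0.34, edgeR adjusted p = 0.0317), and 2 of the 3 controls were at fast-growing levels. Eif2ak2, encoding the kinase PKR that shuts down translation on double-stranded RNA, was at 46.0, 66.2 and 64.5 CPM in controls, at 59.5, 63.1, 61.1, 88.3 and 63.3 CPM in slow-growing PNs, and at 77.3, 91.5 and 107 CPM in fast-growing PNs. Its rise over control was small (0.56 ± 0.17, edgeR adjusted p = 0.031). Dhx58, encoding the regulator LGP2, did not pass any test; its log2 fold change between fast- and slow-growing PNs was 1.31 ± 0.29 (edgeR adjusted p = 0.0518).

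Of the transcription factors and nuclear regulators, Stat2 and Irf9 encode parts of the factor that binds the response element. Stat2 was at 36.5, 49.2 and 41.0 CPM in controls, at 44.5, 46.4, 53.7, 79.7 and 42.1 CPM in slow-growing PNs, and at 63.1, 71.1 and 94.0 CPM in fast-growing PNs, above every control (0.78 ± 0.17, edgeR adjusted p = 0.00655). Irf9 was at 16.5, 29.1 and 23.5 CPM in controls, at 20.1, 24.1, 21.2, 13.3 and 23.8 CPM in slow-growing PNs, and at 23.9, 41.2 and 51.4 CPM in fast-growing PNs. Only 1071 among the fast-growing PNs reached down into the slow-growing range, and the difference was called (0.99 ± 0.21, edgeR adjusted p = 0.0484). Exons of Irf9 overlap those of Rnf31 on the same strand, so reads there may be shared. Irf7, the factor that amplifies interferon production, was at 1.37 to 5.59 CPM in slow-growing and 5.71 to 22.0 CPM in fast-growing PNs, without overlap, but missed the threshold (1.98 ± 0.44, edgeR adjusted p = 0.0518). Sp100, a nuclear body protein, did not pass in any comparison, with 14.9 to 86.2 CPM in the controls alone.

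Among the antiviral effectors, Mx1, a dynamin-like GTPase, showed the largest log2 fold change of all members between fast- and slow-growing PNs, 2.52 ± 0.48 (edgeR adjusted p = 0.0449). It was at 0.777, 9.42 and 6.02 CPM in controls, at 3.65, 3.61, 1.22, 1.64 and 1.16 CPM in slow-growing PNs, and at 3.60, 14.8 and 18.4 CPM in fast-growing PNs. The lowest fast-growing PN, 1071, lay within the slow-growing range, and the other 5 were above it. Its relative Mx2, which the annotation lists as a polymorphic pseudogene, was at 1.21, 4.89 and 2.43 CPM in controls, at 7.75, 4.06, 2.13, 4.74 and 4.53 CPM in slow-growing PNs, and at 6.19, 9.63 and 11.1 CPM in fast-growing PNs. Mx2 passed only against control (1.60 ± 0.41, edgeR adjusted p = 0.0163).

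Gbp3, a guanylate-binding GTPase, was at 6.74, 25.4 and 19.9 CPM in controls, at 18.5, 28.5, 9.34, 4.93 and 24.4 CPM in slow-growing PNs, and at 37.3, 56.8 and 82.9 CPM in fast-growing PNs. All fast-growing PNs lay above all other libraries, with a log2 fold change of 1.65 ± 0.41 over control (edgeR adjusted p = 0.0137) and 1.73 ± 0.40 over slow-growing PNs (edgeR adjusted p = 0.0562). Cmpk2, a mitochondrial nucleotide kinase, was at 9.15, 10.1 and 11.2 CPM in controls, at 16.9, 12.3, 18.5, 23.6 and 14.3 CPM in slow-growing PNs, and at 16.8, 25.1 and 31.5 CPM in fast-growing PNs. Both tumor groups lay above the controls, and the difference was called in fast-growing PNs (1.25 ± 0.20, edgeR adjusted p = 0.00166) but not in slow-growing ones (0.71 ± 0.24, edgeR adjusted p = 0.0891). Its neighbour Rsad2, encoding viperin, overlapped in all 3 groups (14.9 to 55.8 CPM over the 14 libraries) and differed by -0.07 ± 0.39 between fast- and slow-growing PNs.

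Ifitm3, which blocks viral entry at endosomes, was the most abundant member per length, at a mean of 364 CPM per kb. It was at 188, 254 and 279 CPM in controls, at 108, 214, 133, 51.0 and 169 CPM in slow-growing PNs, and at 214, 347 and 447 CPM in fast-growing PNs. Fast- and slow-growing PNs touched at 1071 and 1198A, and the difference missed the threshold (1.35 ± 0.33, edgeR adjusted p = 0.0574). Bst2 (tetherin), Gbp2 and Samd9l did not pass either, with log2 fold changes of 1.61, 1.12 and 0.74 in that comparison.

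Parp9, Dtx3l and Parp14 act in ADP-ribosylation at the interferon response. Parp14 was at 36.4, 111 and 84.8 CPM in controls, at 78.1, 172, 50.0, 34.7 and 87.4 CPM in slow-growing PNs, and at 137, 183 and 303 CPM in fast-growing PNs. It passed against control (1.32 ± 0.38, edgeR adjusted p = 0.0252). Dtx3l was at 36.0, 81.4 and 59.3 CPM in controls, at 39.9, 41.9, 29.6, 28.0 and 32.8 CPM in slow-growing PNs, and at 44.6, 64.4 and 74.0 CPM in fast-growing PNs, and it passed between the tumor groups (0.85 ± 0.17, edgeR adjusted p = 0.0449). Parp9 ranged from 19.0 to 48.5 CPM in fast-growing PNs and passed in no comparison. Parp9 and Dtx3l lie head to head on opposite strands with overlapping exons, and whether reads were counted by strand is not given in the sources used here.

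The remaining 8 members have other or less defined roles. Of these, 4 were called in at least 1 comparison, as were 32.6% of all genes tested in all 3. Rtp4, a chaperone for receptors, was at 7.69, 16.8 and 12.0 CPM in controls, at 9.95, 11.6, 8.42, 5.47 and 12.2 CPM in slow-growing PNs, and at 18.2, 30.1 and 45.7 CPM in fast-growing PNs. All fast-growing PNs lay above all other libraries, with log2 fold changes of 1.27 ± 0.33 over control (edgeR adjusted p = 0.0174) and 1.67 ± 0.26 over slow-growing PNs (edgeR adjusted p = 0.0317). Lgals3bp, a secreted glycoprotein that binds galectin-3, was at 58.5, 137 and 105 CPM in controls, at 47.2, 65.3, 69.1, 69.5 and 69.9 CPM in slow-growing PNs, and at 104, 148 and 204 CPM in fast-growing PNs (1.22 ± 0.18 between the tumor groups, edgeR adjusted p = 0.0317). Xaf1, a pro-apoptotic gene, was at 68.3, 64.3 and 57.1 CPM in controls, at 119.6, 85.9, 87.3, 51.6 and 169 CPM in slow-growing PNs, and at 115, 140.3 and 187 CPM in fast-growing PNs. Fast-growing PNs lay above every control for Xaf1 (1.13 ± 0.17, edgeR adjusted p = 0.000908).

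Ifi27 moved the other way. It was at 173, 199.6 and 218 CPM in controls, at 55.1, 103, 119, 84.0 and 101 CPM in slow-growing PNs, and at 49.7, 86.1 and 99.2 CPM in fast-growing PNs. Every PN lay below every control, by log2 fold changes of -1.13 ± 0.24 in slow-growing (edgeR adjusted p = 0.0218) and -1.35 ± 0.20 in fast-growing PNs (edgeR adjusted p = 0.000854), and the tumor groups overlapped. It was the only member called lower in any comparison. Ifi35, Ifi44, Trim30a and Tor3a were not called, with log2 fold changes of 0.85, 1.85, 1.87 and 1.13 between fast- and slow-growing PNs (edgeR adjusted p = 0.0572 to 0.11); Ifi44 reached 55.8 CPM in 1191.

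**Figure D3:**
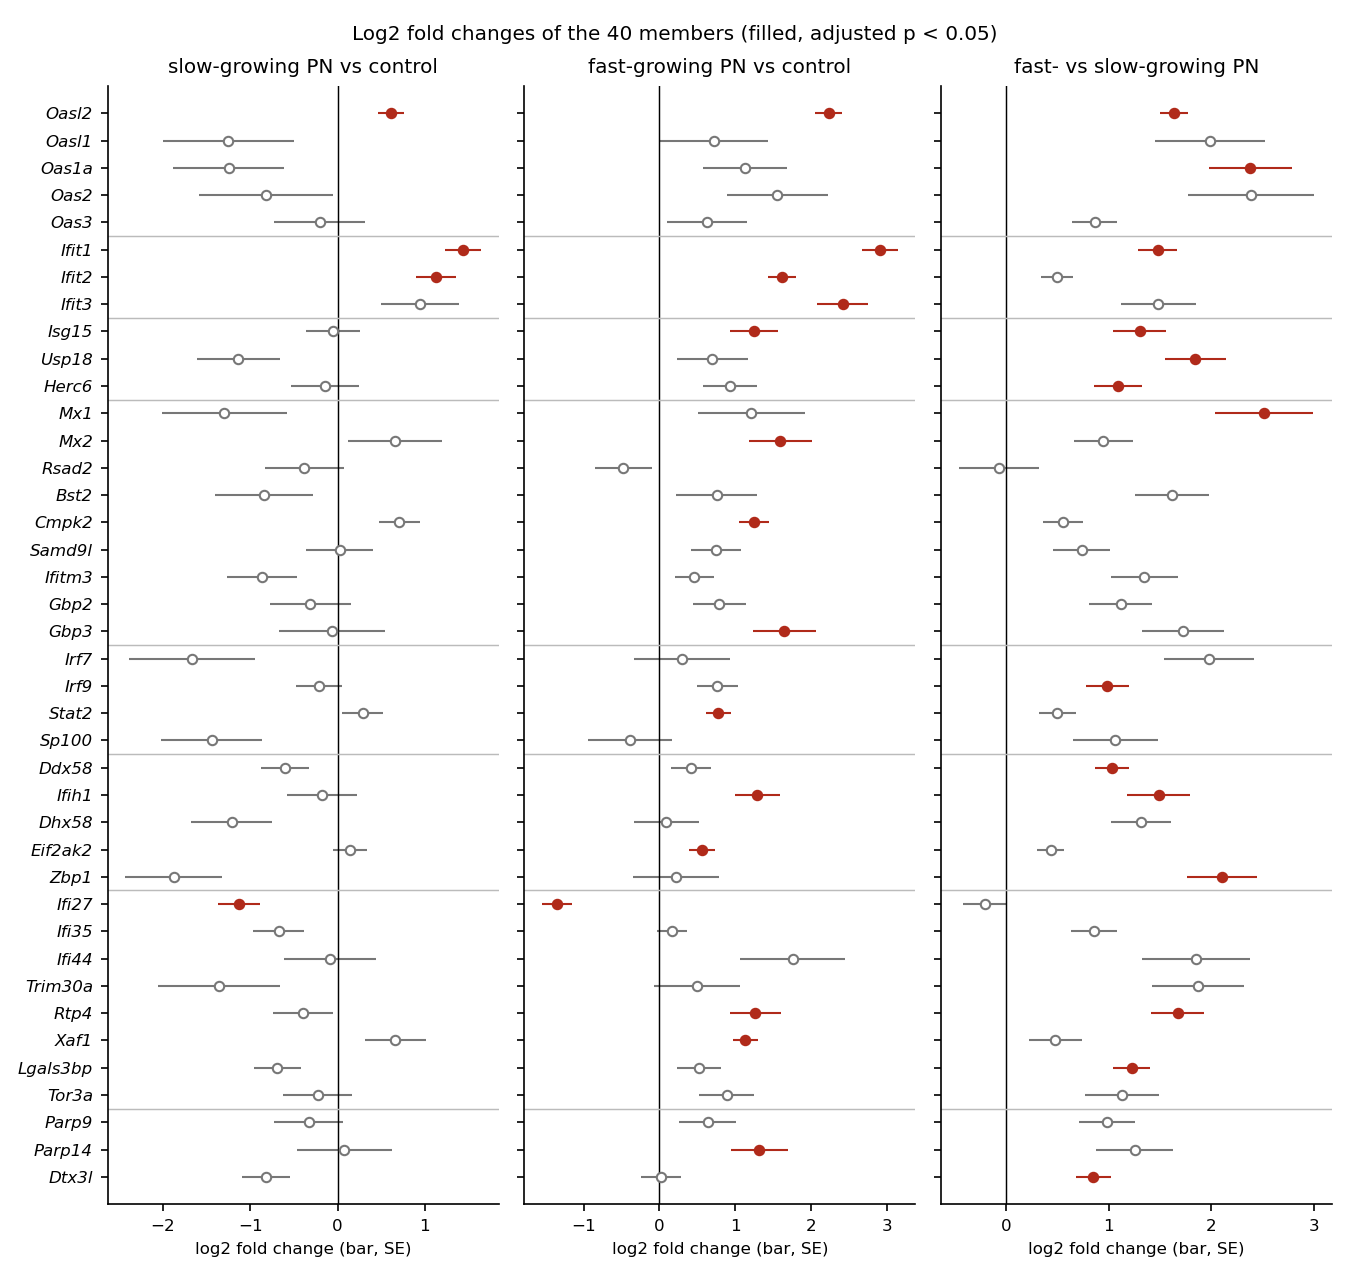
Log2 fold changes (points) with their SE (bars) of the 40 members in the 3 comparisons, grouped by role; filled red points passed the threshold. In the right panel 38 of the 40 members lie above 0, and in the left panel 29 lie below it.

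Across the roles, 24 of the 40 members were called in at least 1 comparison, as were 32.6% of the 15251 genes tested in all 3. The 14 called between the tumor groups and the 14 called higher in fast-growing PNs against control had 5 in common: Oasl2, Ifit1, Isg15, Ifih1 and Rtp4; 0.544% of all genes were called higher in both. The other 9 of the first list were called against slow-growing PNs alone (Oas1a, Mx1, Irf9, Usp18, Ddx58, Dtx3l, Lgals3bp, Herc6 and Zbp1), and whether the 2 differences differ was not tested. Fast-growing PNs lay wholly above control in 15 members, where 17.3% of all genes tested did so, and wholly above slow-growing PNs in 17, where 2.1% did.

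Calls between fast- and slow-growing PNs depended on single libraries. Oasl2 kept its call in all 11 fits that left out 1 library, Ifit1 in 5 and the other 12 in 3 or 4. The count of members fell from 14 to 1 without any of 1079, 1202, 1206, 1053, 1179 or 1191, to 2 without 1216 and to 8 without 1214; it rose to 26 without 1198A, 24 without 1071 and 21 without 1203. The counts over all genes moved with them: 124 genes were called higher with all libraries, 2 or 3 in the fits that left 1 member, 8 without 1216, 49 without 1214, 889 without 1198A, 259 without 1071 and 223 without 1203, so the swing was not particular to the members. The direction held better: each of the 14 stayed above 0 in every one of these fits, and the member median stayed between 1.09 and 1.36. In slow-growing PNs against control, the count called lower rose from 1 to 9 without DRG3, and it was 0 without DRG4 or DRG5; over all genes the share called lower was 9.57%, 2.96% and 2.43% in these fits, beside 7.13%. Ifit1 kept its call in all 8 such fits, Ifit2 and Ifi27 in 6 and Oasl2 in 1. In fast-growing PNs against control, 11 of the 15 calls were kept in all 9 such fits. Those of Mx2 and Parp14 were lost without DRG5, that of Rtp4 without DRG3 or DRG5, and that of Eif2ak2 without DRG3, DRG4 or 1214, with edgeR adjusted p from 0.051 to 0.0848. The member median of this comparison, 0.77, was 0.51 without DRG3 and 1.14 without DRG4. In slow-growing PNs against control the member median, -0.32, was -0.64 without DRG3, -0.12 without DRG4, -0.16 without DRG5 and -0.16 without 1203. It was 0.19 with the macrophage score described next as a covariate and 0.18 with the lymphocyte score.

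Markers of some other cell types, macrophages and fibroblasts among them, moved with the difference between fast- and slow-growing PNs. The 9 measured macrophage markers summed to 187 to 623 CPM in controls, 59.7 to 503 CPM in slow-growing and 269 to 784 CPM in fast-growing PNs. Between fast- and slow-growing PNs 8 of the 9 were above 0, with a median log2 fold change of 1.63, and Fcgr1, an Fc receptor gene that interferon also induces, was called (2.71 ± 0.57, edgeR adjusted p = 0.0484). None of the 9 was at 0 in all libraries, and Csf1r reached 193 CPM. With the macrophage score of each library as a covariate, a fit added once the marker levels had been seen, the member median fell from 1.24 to 0.77, and neither a member nor any other gene was called by edgeR; 38 members stayed above 0 and 19 were higher at an unadjusted p below 0.05, as were 5.50% of all genes.

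**Figure D4:**
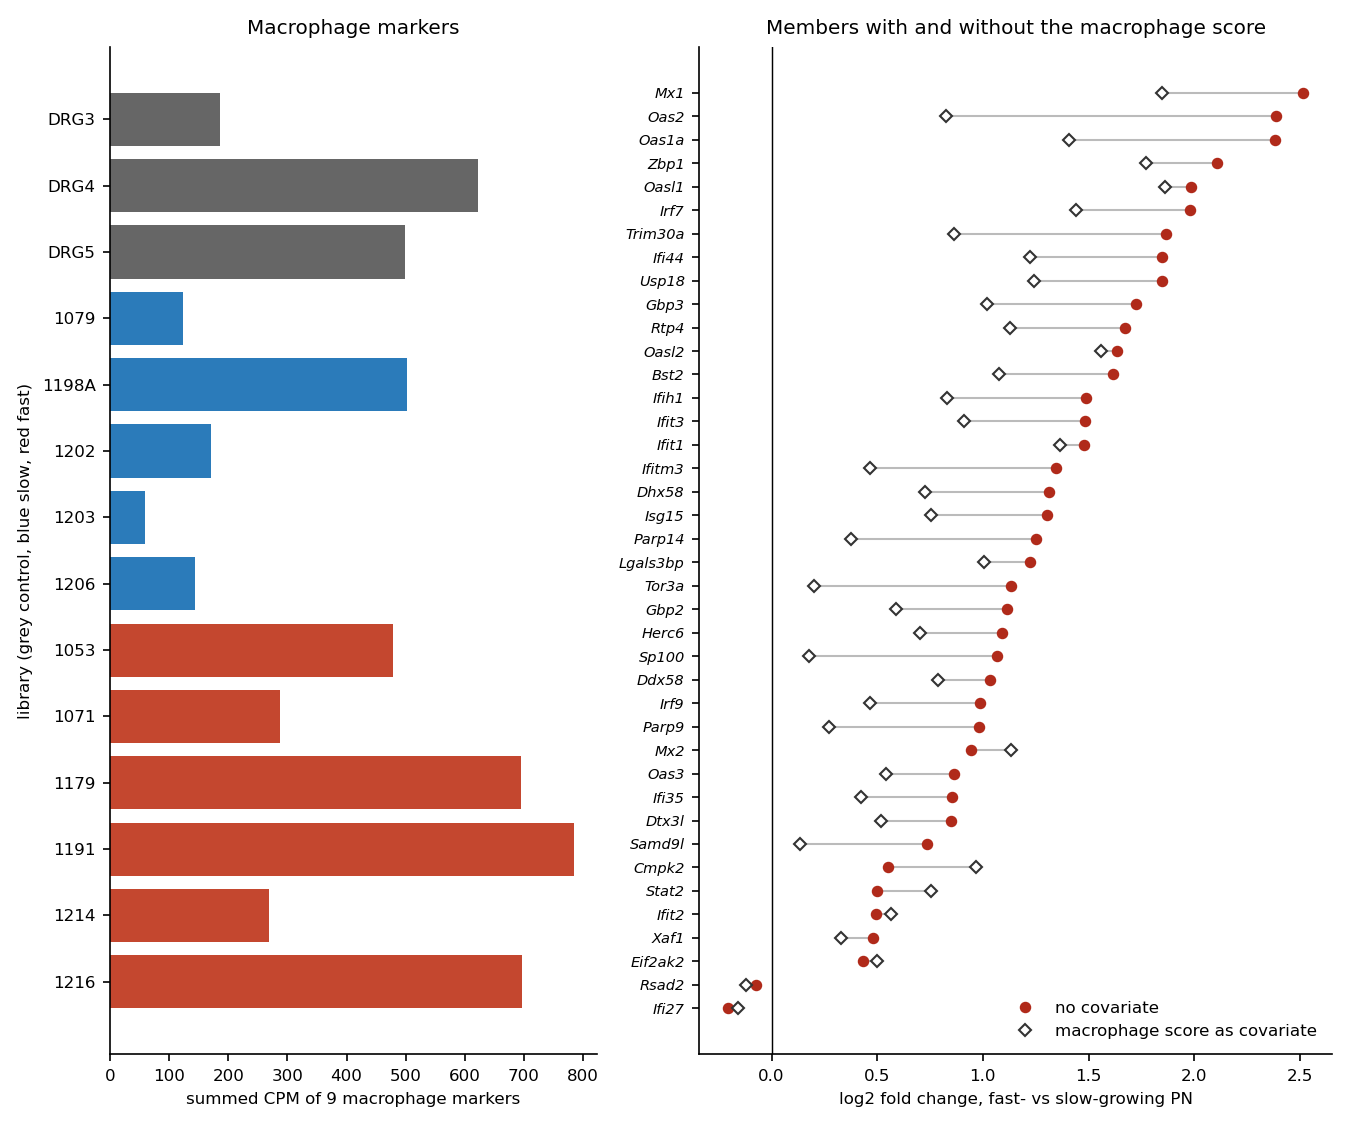
Left, summed CPM of 9 macrophage markers in each library; the slow-growing 1198A, at 503 CPM, is within the fast-growing range of 269 to 784. Right, log2 fold change of each member between fast- and slow-growing PNs without a covariate (filled circles) and with the macrophage score as one (open diamonds). Oasl2 and Ifit1 barely shift, while Tor3a and Sp100 move close to 0.

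Members differed in how far they moved with that score. Oasl2 went from 1.64 to 1.56, Ifit1 from 1.48 to 1.36, Zbp1 from 2.11 to 1.77 and Lgals3bp from 1.22 to 1.01. Tor3a went from 1.13 to 0.20, Sp100 from 1.07 to 0.18, Samd9l from 0.74 to 0.13, Parp14 from 1.25 to 0.38 and Oas2 from 2.39 to 0.83. Cmpk2, Stat2, Mx2, Ifit2 and Eif2ak2 went up. The part of macrophages in the members' differences was not tested beyond this fit.

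Lymphocyte markers were among those that set the controls apart from each other. The 11 markers summed to 8.81 CPM in DRG3, 423 CPM in DRG4 and 322 CPM in DRG5, to 280 CPM in 1079, and to 124 and 143 CPM in 1179 and 1191, against 42.6 CPM or less elsewhere. DRG3, the control with the lowest lymphocyte sum, was also the lowest control for 35 members. DRG3 stood apart from DRG4 and DRG5 in other lists too. Its sums were 187 against 623 and 499 CPM for macrophage markers and 2924 against 1217 and 1028 CPM for SC markers. For neuronal markers they were 3929 against 1791 and 1010 CPM. With 3 controls, these differences cannot be told apart. With the lymphocyte score as a covariate, added in the same way, 34 members were called higher in fast-growing PNs than in controls in place of 14, while the count over all genes was 2368 of 16037 in place of 2371, and the member median was 1.67 in place of 0.77. Between the tumor groups 10 members were called in place of 14, and 50 of 15465 genes in place of 124. Skeletal muscle and fat separated the controls from the tumors, and their markers also differed between the tumor groups. The 15 muscle markers summed to 3974 to 16287 CPM in controls, 30.0 to 3694 CPM in slow-growing and 90.4 to 2424 CPM in fast-growing PNs. The 13 fat markers summed to 4378 to 6209, 45.6 to 3547 and 46.1 to 323 CPM. Between fast- and slow-growing PNs, all 14 muscle markers tested lay below 0, with a median log2 fold change of -1.61 and none called. All 12 fat markers tested lay below 0 there, with a median of -3.70 and 1 called lower, where 0.466% of all genes were. With both scores as covariates no gene was called in any comparison; the member median fell from 0.77 to 0.03 for fast-growing PNs against control, went from -0.32 to -0.06 for slow-growing PNs against control, with 19 members above 0 in place of 11, and was 1.27 between fast- and slow-growing PNs, with all 40 members above 0. Fibroblast genes, 6 in all, summed to 1744 to 3378 CPM in controls, 1158 to 5187 CPM in slow-growing and 4490 to 9348 CPM in fast-growing PNs. All 6 were called higher in fast-growing PNs than in controls, by 1.14 to 2.54 on the log2 scale, and between fast- and slow-growing PNs all 6 were above 0 with a median of 1.06 and none was called. Endothelial markers summed to 375 to 473 CPM in controls, 102 to 472 CPM in slow-growing and 137 to 350 CPM in fast-growing PNs, and 4 of the 7 were called lower in fast-growing PNs than in controls. Neutrophil markers summed to 111 to 1593, 51.2 to 197 and 60.3 to 311 CPM, with median log2 fold changes of -2.41 in slow-growing and -2.17 in fast-growing PNs against control. Neuronal markers, all 8, lay below 0 between fast- and slow-growing PNs (median -0.71, none called). The 7 SC markers had medians of 1.71 in slow-growing and 1.99 in fast-growing PNs against control, with 3 and 5 called higher, and 0.24 between the tumor groups. Genes of plasmacytoid dendritic cells, which make type I interferon, summed to 190 to 238 CPM in controls, 174 to 245 CPM in slow-growing and 218 to 375 CPM in fast-growing PNs, with 3 of 6 above 0 between the tumor groups. In controls and fast-growing PNs most of that sum was Tcf4, which other cells also express, at 139 to 319 CPM in fast-growing PNs and 122 to 147 CPM in controls; Siglech, a defining marker, was at 2.33 to 38.4 CPM in controls, 1.55 to 14.3 CPM in slow-growing and 8.64 to 22.2 CPM in fast-growing PNs. The part of these cell types in the results was not tested further.

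Of the 19 interferon genes searched, 13 had no read in any library, Ifnb1 and most Ifna genes among them. Ifna2, Ifnab, Ifne and Ifnz did not exceed 0.345 CPM, and Ifng, the type II interferon, reached 0.739 CPM in DRG4 and at most 0.203 CPM in a PN. Ifng in DRG4 and Ifna2 in DRG3 exceeded the worth of 3 counts in their library (0.277 and 0.259 CPM), and the other values of these 5 genes did not; expression below that floor was not detectable at this depth. Only Ifnk, a type I interferon of epithelia, passed the filter, at 1.66 to 3.63 CPM in controls, 1.37 to 3.72 CPM in slow-growing and 0.680 to 1.46 CPM in fast-growing PNs. It was lower in fast-growing PNs than in controls (-1.23 ± 0.33, edgeR adjusted p = 0.0192).

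The receptor subunits were all detected. Ifnar1, a chain of the type I receptor, was at 82.8 to 103 CPM in controls, at 206 to 243 CPM in slow-growing and 210.5 to 265 CPM in fast-growing PNs. Both tumor groups lay above every control, by log2 fold changes of 1.25 ± 0.16 (edgeR adjusted p = 0.00293) and 1.30 ± 0.14 (edgeR adjusted p = 0.000139), and they differed from each other by 0.06 ± 0.10. Ifnar2, its partner, did not pass in any comparison (36.7 to 102 CPM over all libraries). Ifngr2 and Il10rb, chains of the type II and type III receptors, were higher in fast-growing PNs than in controls by 0.42 ± 0.12 and 0.48 ± 0.15 (edgeR adjusted p = 0.0215 and 0.0326). Ifngr1 and Ifnlr1 were not called.

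**Figure D5:**
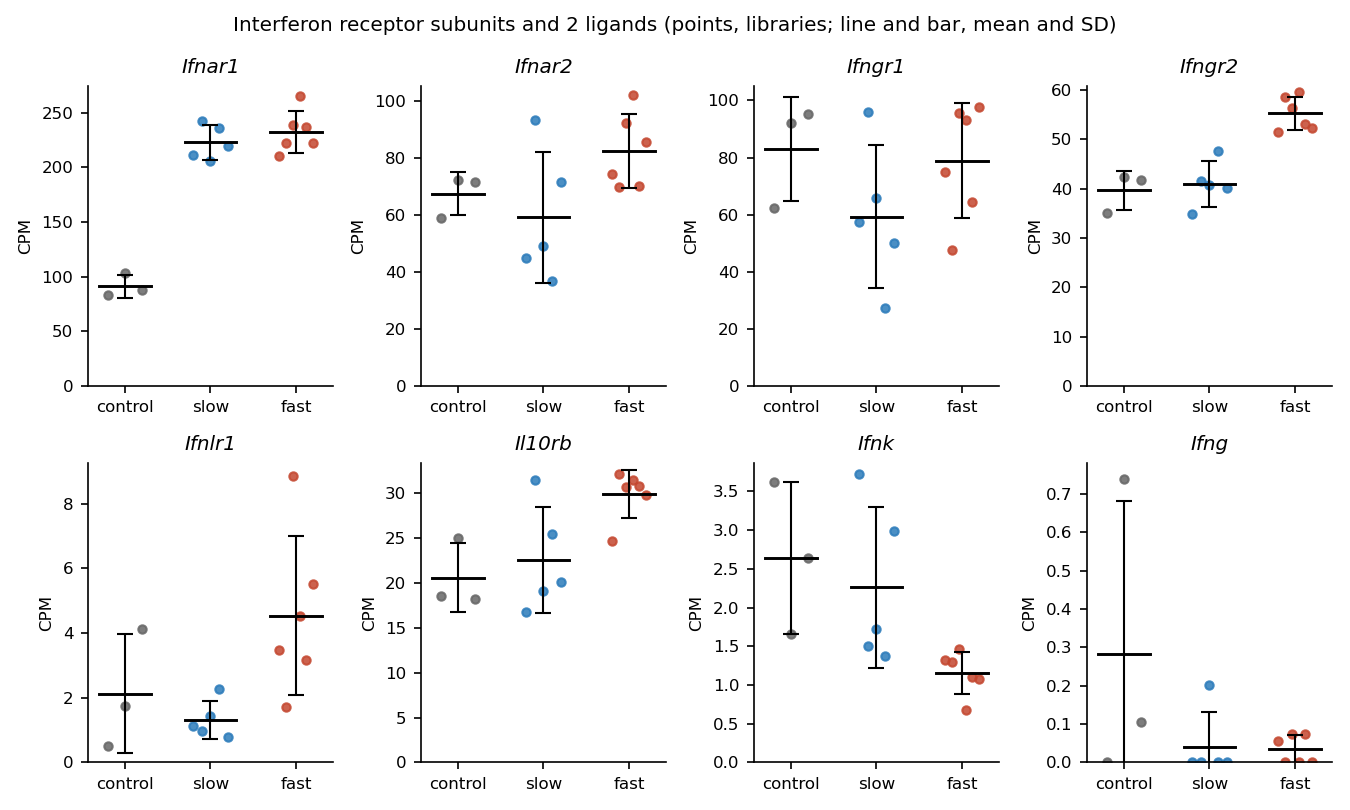
CPM of the 6 interferon receptor subunits and of Ifnk and Ifng in each library (points), with the group mean (line) and SD (bar). Ifnar1 lies at 82.8 to 103 CPM in controls and at 206 CPM or more in all 11 PNs, while Ifng stays at or below 0.739 CPM.

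None of the kinases Jak1, Jak2 and Tyk2 passed in any comparison. Of 12 genes of upstream sensing, only Mavs, the adaptor of the RNA sensors, was called, lower in fast-growing PNs than in controls (-0.80 ± 0.16, edgeR adjusted p = 0.00551); between fast- and slow-growing PNs 10 of the 12 were above 0, with a median of 1.08. Of 8 genes of restraint, Adar (0.86, edgeR adjusted p = 0.00168) and Pias1 (0.46, edgeR adjusted p = 0.0344) were higher in fast-growing PNs than in controls. Irf1, Irf2 and Irf8 were not called.

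A second list of interferon-induced genes outside the 40 held 43 genes in the table, 39 of them tested between fast- and slow-growing PNs. Of the 39, 5 were called higher, where 0.802% of all genes were, and none lower; 35 were above 0, and the median log2 fold change was 0.93; by unadjusted p none of the 39 was lower either. The 5 were Oas1g (3.44), Phf11b (2.53), Slfn8 (1.72), Trim34a (1.49) and Trim25 (0.62). Against control, fast-growing PNs had 8 of 41 higher (Apol9a, Parp11, Parp12, Znfx1, Tdrd7, Lgals9, Sp140 and Gbp6) and 2 lower (Ifi205 and Isg20), where 14.8% of all genes were called higher and 16.7% lower. Slow-growing PNs had none higher and 2 of 39 lower (Epsti1 and Slfn5), where 4.12% and 7.13% of all genes were called. Of 11 genes led by interferon gamma, Tap1, a peptide transporter for antigen presentation, was called between fast- and slow-growing PNs (1.56, edgeR adjusted p = 0.0484), where 0.802% of all genes were called higher. All 11 were above 0 in that comparison, and the median was 1.29. Against control, fast-growing PNs had 4 of the 11 above 0, with a median of -0.46 and none called. Slow-growing PNs had 0 of the 11 above 0 against control, with a median of -1.95. Of the 11, 2 were called lower there, Cxcl9 (-4.05) and Psmb9 (-2.41), where 7.13% of all genes were.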

How the data were processed

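RNA of 14 mouse samples was sequenced as total RNA libraries (Ovation RNA-Seq System v2). Per the labels and the study's methods, the authors aligned reads to mm10 with TopHat2 2.0.9, counted them per gene with featureCounts 1.5.2 and normalized with edgeR 3.16.5; the gene annotation and strand setting are not given in the sources used here. The deposited raw counts per gene were used; the authors' deposited log2 normalized values were not used. Groups came from the labels. CPM were computed from the counts after TMM scaling. Genes passing filterByExpr were tested with edgeR 4.0.16 (quasi-likelihood, R 4.3.3) on the libraries of the 2 groups compared, with Benjamini-Hochberg adjustment over all genes tested. The test was tested on simulated data first. Gene positions came from GENCODE for mm10, in which 22758 genes matched by symbol, 934 by an older symbol and 370 not. Exons of 14 members overlap another gene's, 5 on the same strand and 9 on the opposite strand. Promoters are RefSeq's.

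Every member is described under its role, with values for those called in at least 1 comparison and for the most abundant of each role (each library of controls and slow-growing PNs, and the lowest, median and highest of fast-growing PNs). The members and lists were chosen with earlier results of these data known, so a pattern that repeats those results is not independent support. Marker scores are means of log2(CPM + 1) over the markers. Alternatives were RLE scaling, DESeq2 1.42.0, limma-voom (limma 3.58.1), no filter or a filter at 1 CPM, all 14 libraries in 1 fit, removal of length and GC trends, muscle and fat scores as covariates, and leaving out each library. The macrophage and lymphocyte covariates and the joint removal of 1079 and 1191 were chosen after seeing the data.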

Additional observations from a re-analysis of the deposited data

Results flagged for a closer look

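In 3 of 80 tests of a single sample against its group (40 members in each tumor group, Dixon's ratio, where chance gives about 4), 1 library stood apart. Ifih1 was at 105.6 CPM in the fast-growing PN 1179, with the next at 70.8 CPM. Eif2ak2 was at 88.3 CPM in the slow-growing PN 1203, with the next at 63.3 CPM. Lgals3bp was at 47.2 CPM in the slow-growing PN 1079, with the next at 65.3 CPM.

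The other results listed for a closer look are the 14 members that differed between fast- and slow-growing PNs by edgeR's test. Their log2 fold changes of fast over slow were 1.64 for Oasl2, 2.38 for Oas1a, 1.48 for Ifit1, 1.30 for Isg15, 2.52 for Mx1, 0.99 for Irf9 and 1.85 for Usp18. For the others they were 1.04 for Ddx58, 1.49 for Ifih1, 0.85 for Dtx3l, 1.67 for Rtp4, 1.22 for Lgals3bp, 1.09 for Herc6 and 2.11 for Zbp1.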

How the results depend on the processing

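No paired analysis was possible because the labels give no replicate numbers shared between groups. Between fast- and slow-growing PNs, where 14 members were called higher, RLE scaling gave 9 (0.453% of all genes, against 0.802%), DESeq2 32 (4.15%), limma-voom 5 (0.175%), and leaving out 1079 and 1191 together 1, Oasl2 (0.0129%). The muscle and fat scores and the macrophage score gave 0, as for all genes by edgeR, with 30 and 19 members higher at an unadjusted p below 0.05 (8.35% and 5.50% of all genes). Leaving out 1 library at a time gave 1 to 26 (0.0128% to 5.69%). In fast-growing PNs against control, where 14 members were higher and 1 lower, the muscle and fat scores gave 0 and 0, the lymphocyte score gave 34 higher (14.8% of all genes, as without it), and leaving out 1 library gave 11 to 18 higher (9.3% to 14.8%). In slow-growing PNs against control, 3 were higher and 1 lower. There the muscle and fat scores gave 0 and 0, and the macrophage score 1 and 0 (1.81% and 2.57% of all genes, against 4.12% and 7.13%). The lymphocyte score gave 1 and 0 (1.68% and 3.0%). DESeq2 gave 2 lower (9.3% of all genes), and the fit of all 14 libraries 3 lower (10.4%). Leaving out 1 library gave 1 to 3 higher (1.31% to 5.69% of all genes) and 0 to 9 lower (2.43% to 9.57%). Ifih1 against control reversed to -0.023 (edgeR adjusted p = 0.998) in fast-growing PNs with the muscle and fat scores. Of the members' values under the alternatives, 650 of 760 in slow-growing PNs against control, 707 of 800 in fast-growing PNs against control and 664 of 880 between the tumor groups kept their direction and their side of the threshold. The cause of these changes was not tested.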
